A study of Mus musculus with 8 samples.

Results

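Layer 2/3 (L2/3) excitatory neurons of the mouse primary visual cortex (V1) were examined as the nuclei that the deposited cell table names L2/3. They numbered 21913 of 102330 nuclei and were the largest share of 20 cell types that the table held for 8 libraries. The counts of unique molecular identifiers (UMIs) of these nuclei were summed per library, so that the library was the unit of replication. All mice were GRfl/fl, that is, both alleles of the glucocorticoid receptor gene Nr3c1 were flanked by loxP sites, and V1 was collected at postnatal day 21. At birth they received an adeno-associated virus of serotype AAV2/5 whose GfaABC1D promoter is meant to be active in astrocytes. It carried Cre-T2A-EGFP (GR-KO) or the inactive ΔCre-T2A-EGFP (GR-Con), in both cases with the CAAX, 4x6T and WPRE elements. The mice were then normal-reared (NR) or dark-reared (DR), which gives 4 groups of 2 libraries, 1 from a male and 1 from a female. Pairs of values below are in the order male, female.

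Upper-layer pyramidal neurons receive visual input relayed from layer 4, excite one another and send axons to other cortical areas, and their subtypes are arranged by depth within the layer. Visual input depolarizes them, and calcium entry then acts through kinases and the transcription factor CREB on immediate early genes. Several of these encode transcription factors such as the FOS, EGR and NR4A proteins, which in turn act on effector genes for secreted factors, receptors and signalling proteins. Rearing in the dark removes patterned vision but not spontaneous activity.

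The deposited label matched its markers. Cux2, a homeobox transcription factor of upper layers, was at 369.6 CPM (UMI counts scaled to one library total, over all libraries) in L2/3 and at 350.4 CPM in L4, the next type. Otof, a calcium sensor of vesicle fusion, was at 59.9 CPM against at most 11.7 CPM elsewhere, and Ccbe1, a secreted calcium-binding protein, at 163 CPM against at most 83.8 CPM. The L4 marker Rorb was at 119.6 CPM against 1553 CPM in L4, and the inhibitory marker Gad1 and the astrocyte marker Aqp4 were at 1.68 and 0.858 CPM. L2/3 made up 19.0% to 23.9% of the nuclei of a library. That share did not differ detectably with rearing (log2 difference 0.05, p 0.70, edgeR quasi-likelihood F-test) or genotype (0.03, p 0.79). L2/3 nuclei summed to between 50959046 and 81316411 UMIs per library. The median nucleus was shallowest in DR GR-KO female, with 18144 UMIs, and deepest in NR GR-KO female, with 37731. Of 101098 distinct barcodes, 1220 occurred in more than 1 library, 58 of them among L2/3 nuclei.

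The targeted gene Nr3c1 was at 157 and 179 CPM (scaled to the library total, as above) in NR GR-Con, 183 and 179 in NR GR-KO, 189 and 164 in DR GR-Con and 176 and 193 in DR GR-KO in L2/3. It did not differ between genotypes there (log2 fold change 0.10, SE 0.11, adjusted p 1.0), nor was it lower in the astrocyte nuclei of GR-KO (268 to 284 CPM) than in those of GR-Con (207 to 263 CPM). A count from the 3' end can include transcripts with an internal deletion, so these values do not check the knockout. Cre UMIs numbered 0 in L2/3 of the 4 GR-Con libraries. In L2/3 of GR-KO they numbered 262 and 55 in NR and 47 and 94 in DR, so RNA of the Cre vector was counted with these neurons as well, although the study's methods describe the sorted nuclei as GFP-negative. Scaled to the total of each cell type these were 3.51 and 0.717 CPM in NR and 0.892 and 1.61 in DR, against 10.2 and 4.14 CPM and 10.4 and 5.98 CPM in the astrocytes of the same libraries. EGFP of the same vector was at 0.992 and 0.274 CPM in L2/3 of NR GR-KO and 0.455 and 0.428 in DR GR-KO. In their astrocytes EGFP was at 22.8 and 8.63 CPM and at 23.4 and 12.2 CPM. The study took eGFP across cell types as evidence that its vectors were specific to astrocytes. Whether the vector RNA counted in L2/3 came from these neurons or from other cells was not tested. When nuclei were reduced to 5000 UMIs, Cre was found in 0.348% to 1.69% of L2/3 nuclei of GR-KO and in 0% to 0.167% of their oligodendrocytes. Unreduced, these shares were 1.78% to 9.07% and 0% to 0.397%, the highest in NR GR-KO male. The feature for ΔCre was counted in all 8 libraries. In L2/3 it had 11 and 4 UMIs in NR GR-Con, 9 and 17 in DR GR-Con, 176 and 41 in NR GR-KO and 44 and 70 in DR GR-KO, so this feature did not separate the vectors.

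One library and one subset of nuclei stood apart from the rest. All CPM of single genes in L2/3 from here on are TMM-scaled unless stated. In the NR GR-KO male library, the immediate early gene Egr4 was at 24.5 CPM against 3.71 to 4.91 CPM in the other NR libraries. Fos was at 15.001 CPM there against 1.22 to 2.02 CPM, and Arc at 25.4 against 1.60 to 3.37 CPM. Nuclei with at least 5 Tshz2 UMIs per 10000, a cutoff chosen after the data were seen, were taken as a subset of 898 L2/3 nuclei. Whether they are a separate population was not tested. They were 7.84% of L2/3 in NR GR-KO male and 0.147% in NR GR-KO female, and 6.07% and 3.85% in DR GR-Con and 9.57% and 4.76% in DR GR-KO. In NR GR-Con they were 0 of 2957 and 0 of 2531, which allows a share of up to 0.101% and 0.119% (counting error only). All 4 DR libraries and NR GR-KO male thus held them at 3.85% or more, and the other 3 NR libraries at 0.147% or less. CPM of the subset and of the other L2/3 nuclei are without TMM, scaled to the UMIs of each set summed over libraries. The subset came mostly from the DR libraries and NR GR-KO male and the other nuclei from all 8 libraries, so these contrasts are not separated from rearing. The subset had 1755 CPM of Tshz2, a zinc-finger transcription factor, against 15.8 CPM in the other L2/3 nuclei, a difference that the cutoff sets. The subset also had 712 against 31.2 CPM of the sialyltransferase St6galnac5. Markers of L2/3 were lower in it, with Otof at 13.5 against 62.2 CPM and Stard8 at 3.16 against 55.8 CPM, while of the genes that mark deep-layer neurons Fezf2 was at 0.632 against 0.716 CPM, and Htr2c (51.1 against 4.86 CPM), Vwc2l (658 against 80.6), Deptor (27.3 against 8.69) and Foxp2 (15.9 against 6.24) were higher in it. Microglia numbered 2 to 4 nuclei in NR GR-Con male, NR GR-KO male and DR GR-Con female and 573 to 948 in the other libraries. NR GR-KO female, the deepest library, had 19.5% of its L2/3 nuclei between 10000 and 30000 UMIs (65.0% to 92.5% in the others) and held 59 nuclei of the type named L5PT against 384 to 504. Several of the results below are given also without NR GR-KO male or without the Tshz2-high nuclei.

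**Figure D1:**
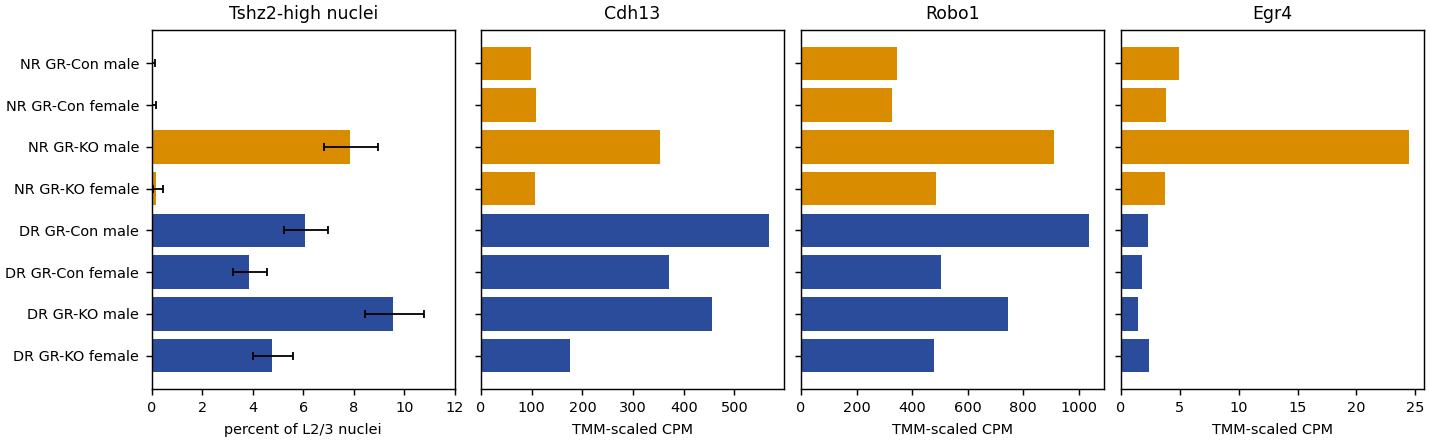
Share of Tshz2-high nuclei (percent of L2/3 nuclei, with exact 95% binomial intervals) and TMM-scaled CPM of Cdh13, Robo1 and Egr4 in L2/3, 1 bar per library, NR in orange and DR in blue. NR GR-KO male is the only NR library with more than 0.147% of Tshz2-high nuclei, and at 24.5 CPM it has the highest Egr4 of the 8 libraries.

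The first comparison asked what rearing in the dark changed in L2/3, over both genotypes, with 4 DR against 4 NR libraries. Of 18793 genes tested, 2987 passed an adjusted p of 0.05 in the edgeR likelihood ratio test and are named as called below. In the dark 1434 of them rose (7.63% of all genes tested) and 1553 fell (8.26%). The quasi-likelihood F-test called 2631 genes (14.0%), of which 2365 were called by both tests, and DESeq2 called 3544. In 3993 genes (21.2%) the 4 DR libraries did not overlap the 4 NR libraries. Fold changes are on the log2 scale, as DR over NR or as GR-KO over GR-Con, and SE is the standard error of the fold change. The count was 1475 without the DR GR-KO male library, 1712 without NR GR-Con male and 1741 without NR GR-KO female. It was 3222 without NR GR-KO male and 3097 without the Tshz2-high nuclei, and 2453 and 2768 of the 2987 genes were then still called, all in the same direction.

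Genes are named here from 587 that both tests called, with a mean of at least 5 on the log2 CPM scale and no overlap of DR and NR libraries, as the 12 per direction with the largest fold change. The largest decrease among them was that of Osbpl3 (chromosome 6, 50293330 to 50456201, GRCm38), which encodes an oxysterol-binding protein that transfers lipids at membrane contacts. It was at 336 and 362 CPM in NR GR-Con, 221 and 229.6 in NR GR-KO, 64.2 and 68.4 in DR GR-Con and 122 and 101 in DR GR-KO. Each DR library lay below each NR library, and within NR the GR-KO libraries lay below the GR-Con libraries, within DR above them. It changed by -1.71 with an SE of 0.27 and an adjusted p of 4.2e-08. An ion channel, a channel subunit and a guidance ligand were among the other genes. Trpc6, a receptor-operated cation channel, was at 62.2 and 44.2 CPM in NR GR-Con, 58.3 and 52.1 in NR GR-KO, 35.3 and 18.3 in DR GR-Con and 21.4 and 18.6 in DR GR-KO (fold change -1.23, SE 0.22 and adjusted p 3.3e-06). Kcnv1, a silent subunit that modifies voltage-gated potassium channels, fell in both genotypes and was at 69.6 and 69.4 CPM in NR GR-Con, 55.9 and 77.2 in NR GR-KO, 45.2 and 39.6 in DR GR-Con and 23.6 and 26.2 in DR GR-KO (fold change -1.06, SE 0.18 and adjusted p 1.7e-07). Slit2, a secreted ligand of Robo receptors, was at 192 and 164 CPM in NR GR-Con, 160.3 and 143 in NR GR-KO, 113 and 92.1 in DR GR-Con and 64.0 and 99.7 in DR GR-KO (fold change -0.84, SE 0.16 and adjusted p 6.0e-06). The DR and NR libraries did not overlap for any of these genes, a separation that the rule for naming them required.

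The protein kinase gene Hunk fell from 58.1 ± 10.8 to 24.6 ± 13.1 CPM (SD, n = 4; fold change -1.24, SE 0.30 and adjusted p 7.5e-04). Nrep, a small protein named for its link to neuronal regeneration, fell from 48.9 ± 10.5 to 21.7 ± 7.16 CPM (fold change -1.19, adjusted p 3.0e-08). Maml3, a coactivator of Notch signalling, fell from 250.0 ± 62.5 to 127 ± 15.2 CPM (-0.97, adjusted p 5.0e-06), whereas its relative Maml2 rose. The collagen Col19a1 fell from 205 ± 20.1 to 115 ± 16.04 CPM (-0.83, adjusted p 6.2e-08). Etl4, Mir670hg, Rasgef1c and Siae completed the 12, with fold changes of -0.86, -0.85, -0.83 and -0.82. Of the 12 genes, 8 were also called lower in GR-Con and in GR-KO when each was tested on its own 4 libraries; the others missed the threshold in 1 genotype, Hunk (adjusted p 0.069), Trpc6 (0.057) and Mir670hg (0.100) in GR-Con and Rasgef1c (0.084) in GR-KO.

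Among the 12 genes with the largest increases, Tcerg1l stood first (chromosome 7, 138208974 to 138397730). It was at 14.6 and 8.47 CPM in NR GR-Con, 19.6 and 13.0 in NR GR-KO, 46.6 and 54.4 in DR GR-Con and 79.2 and 43.2 in DR GR-KO (fold change 2.02, SE 0.25 and adjusted p 1.2e-12). Otof, itself a marker of L2/3, was at 29.2 and 34.2 CPM in NR GR-Con, 44.3 and 35.3 in NR GR-KO, 94.1 and 71.2 in DR GR-Con and 104 and 72.7 in DR GR-KO (fold change 1.27, SE 0.16 and adjusted p 4.5e-12). Both genes were higher in all 4 DR libraries than in all 4 NR libraries, in males and in females, which the rule for naming them required. The products of Matn2, Col23a1, Adamts16 and Adamts2 belong to the extracellular matrix or act on it. Matn2, which encodes a matrilin, was at 53.0 and 41.3 CPM in NR GR-Con, 53.3 and 43.7 in NR GR-KO, 95.1 and 149 in DR GR-Con and 149.9 and 105 in DR GR-KO (fold change 1.38, SE 0.19 and adjusted p 4.9e-11). The transmembrane collagen Col23a1 rose from 28.6 ± 9.61 to 75.3 ± 15.04 CPM (1.40, adjusted p 4.1e-07), and the secreted metalloproteases Adamts16 and Adamts2 from 21.2 ± 4.03 to 54.4 ± 13.9 CPM (1.36) and from 34.9 ± 9.24 to 86.3 ± 33.8 CPM (1.30). Maml2, a Notch coactivator, rose from 18.4 ± 4.61 to 61.0 ± 23.5 CPM (1.68, adjusted p 1.1e-06). Mei4, Ankfn1, Zbtb7c, Ttc28 and Tmem150c completed the 12, with fold changes of 1.40, 1.16, 1.15, 1.12 and 1.10. Of the 12 genes, 11 were called higher in each genotype on its own, the exception being Mei4 (adjusted p 0.25 in GR-KO). All 24 genes of both lists remained called in the same direction without NR GR-KO male, without NR GR-KO female and without the Tshz2-high nuclei, which the rule that named them favours.

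**Figure D2:**
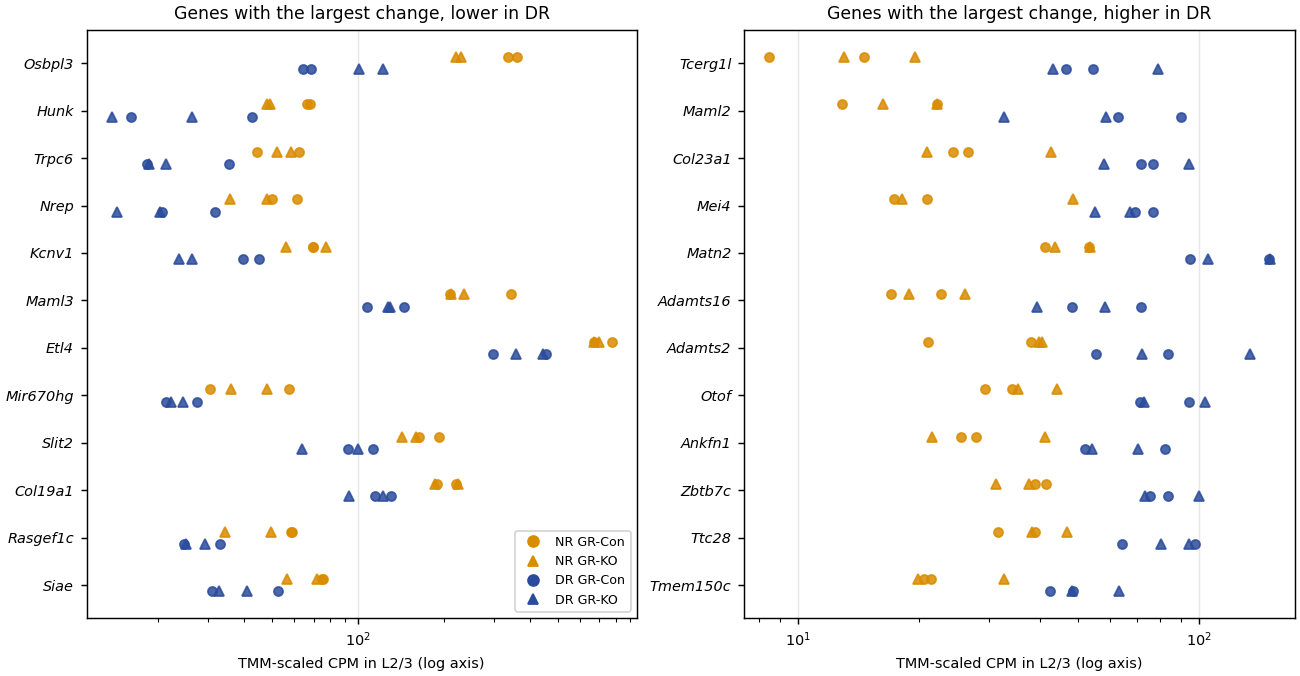
TMM-scaled CPM (log axis) in L2/3 of the 12 genes per direction with the largest change in the dark, 1 symbol per library, NR in orange and DR in blue, circles for GR-Con and triangles for GR-KO. Genes are named by fold change among those called by both tests without overlap between the 4 DR and 4 NR libraries, so the separation in each row is a property of the choice; Osbpl3 has the largest fold change of the 12 genes lower in DR (-1.71) and Tcerg1l of the 12 higher (2.02).

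Among activity-regulated genes, every gene called in the fit of 8 libraries was lower in the dark. Of 20 effector genes, 11 were called lower and 0 higher (9 lower by the quasi-likelihood test, and 10 lower and 1 higher, Nptx1, by DESeq2), against 8.26% of all genes lower and 7.63% higher, with a median fold change of -0.75 against -0.0047 over all genes tested. Of 19 immediate early transcription factors tested, 5 were called lower and 0 higher (1 lower by the quasi-likelihood test, which called 14.0% of all genes in either direction), with a median of -0.71. Without NR GR-KO male, 10 effectors stayed lower and none was higher (median -0.49), but of the transcription factors 2 were lower and 3 higher (median -0.05). The fit without DR GR-KO male called 8 effectors lower and 0 transcription factors. That without NR GR-KO female called 13 effectors and 10 transcription factors lower. The summed level of the transcription factors was 129 to 184 CPM in 3 NR libraries and 418 CPM in NR GR-KO male, and 124 to 147 CPM in DR. Members of both lists were chosen with earlier results of these data known.

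Among the effectors, 3 genes for secreted proteins are given in full. Nptx2, a pentraxin that gathers AMPA receptors at excitatory synapses, was at 7.19 and 4.76 CPM in NR GR-Con, 7.67 and 4.52 in NR GR-KO, 1.44 and 1.97 in DR GR-Con and 1.43 and 2.00 in DR GR-KO (fold change -1.82, SE 0.24 and adjusted p 4.3e-11). Scg2, a granin packed into dense-core vesicles, was at 12.1 and 9.84 CPM in NR GR-Con, 13.4 and 9.71 in NR GR-KO, 3.84 and 5.00 in DR GR-Con and 2.52 and 2.67 in DR GR-KO (fold change -1.72, SE 0.22 and adjusted p 2.5e-12). Bdnf, the neurotrophin that signals through TrkB, was at 24.9 and 19.8 CPM in NR GR-Con, 32.5 and 18.0 in NR GR-KO, 16.6 and 10.8 in DR GR-Con and 10.8 and 9.74 in DR GR-KO (fold change -1.001, SE 0.24 and adjusted p 5.6e-04). For these 3 genes every DR library lay below every NR library, and each remained called without NR GR-KO male (adjusted p 1.6e-10, 2.6e-15 and 2.2e-04). Inhba, a subunit of activin, was at 23.9 to 31.6 CPM in NR and 11.9 to 18.6 in DR (-0.82, adjusted p 2.0e-09), and Ptgs2, the inducible cyclooxygenase, at 4.42 to 6.42 CPM in NR and 0.994 to 2.20 in DR (-1.89, adjusted p 8.6e-11). Baz1a, a chromatin-remodelling subunit, was at 16.5 to 30.8 CPM in NR and 4.36 to 9.68 in DR (-1.58). Nrn1, a membrane-anchored protein of neurite growth, was at 74.2 to 95.9 CPM in NR and 48.9 to 62.4 in DR (-0.53). Vgf, Dusp6, Plk2 and Gadd45b were also called, with fold changes of -1.03, -1.28, -0.34 and -0.60, Gadd45b not without NR GR-KO male (adjusted p 0.098). Homer1, a scaffold of metabotropic receptors, was at 277 to 467 CPM in NR and 297 to 427 in DR and was not called (adjusted p 0.98), and neither was Arc (1.60 to 25.4 CPM in NR and 1.24 to 5.32 in DR, adjusted p 0.28).

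Of the early transcription factors, Egr4 was at 4.91 and 3.87 CPM in NR GR-Con, 24.5 and 3.71 in NR GR-KO, 2.27 and 1.77 in DR GR-Con and 1.45 and 2.40 in DR GR-KO (fold change -1.99, SE 0.59 and adjusted p 0.0081). Every DR library was lower than every NR library, and without NR GR-KO male the fold change was -1.05 (adjusted p 3.5e-05). Nr4a1, an orphan nuclear receptor, was at 48.0 and 47.3 CPM in NR GR-Con, 60.8 and 45.1 in NR GR-KO, 41.0 and 25.2 in DR GR-Con and 25.7 and 36.6 in DR GR-KO (fold change -0.65, SE 0.19 and adjusted p 0.0087). Npas4, a neuron-specific factor induced by calcium entry, was at 13.8 and 11.7 CPM in NR GR-Con, 45.4 and 6.33 in NR GR-KO, 5.74 and 6.87 in DR GR-Con and 7.34 and 6.19 in DR GR-KO (fold change -1.47, SE 0.50 and adjusted p 0.026). The NR GR-KO female library overlapped the DR range for Npas4, and the call was lost without NR GR-KO male (-0.59, adjusted p 0.071). Within GR-Con alone, which does not use that library, Npas4 had a fold change of -1.01 (adjusted p 8.1e-06), and in that test Nr4a2 (2.16, adjusted p 0.041) and Nr4a3 (1.45, adjusted p 0.0014) were called higher. Within GR-Con the quasi-likelihood test called 0 of these transcription factors higher and 2 lower, and DESeq2 1 higher and 3 lower. Jund and Ier5 were called with all libraries (-0.54 and -0.66) and not without NR GR-KO male. Fos (1.22 to 15.001 CPM in NR and 0.852 to 1.61 in DR, adjusted p 0.14) and Egr1 (8.41 to 39.1 CPM in NR and 6.06 to 9.70 in DR, adjusted p 0.067) were not called. Egr3, Nr4a2 and Nr4a3 were the 3 that were higher without NR GR-KO male, and none of them was called with all libraries (adjusted p 0.38, 0.44 and 0.36).

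**Figure D3:**
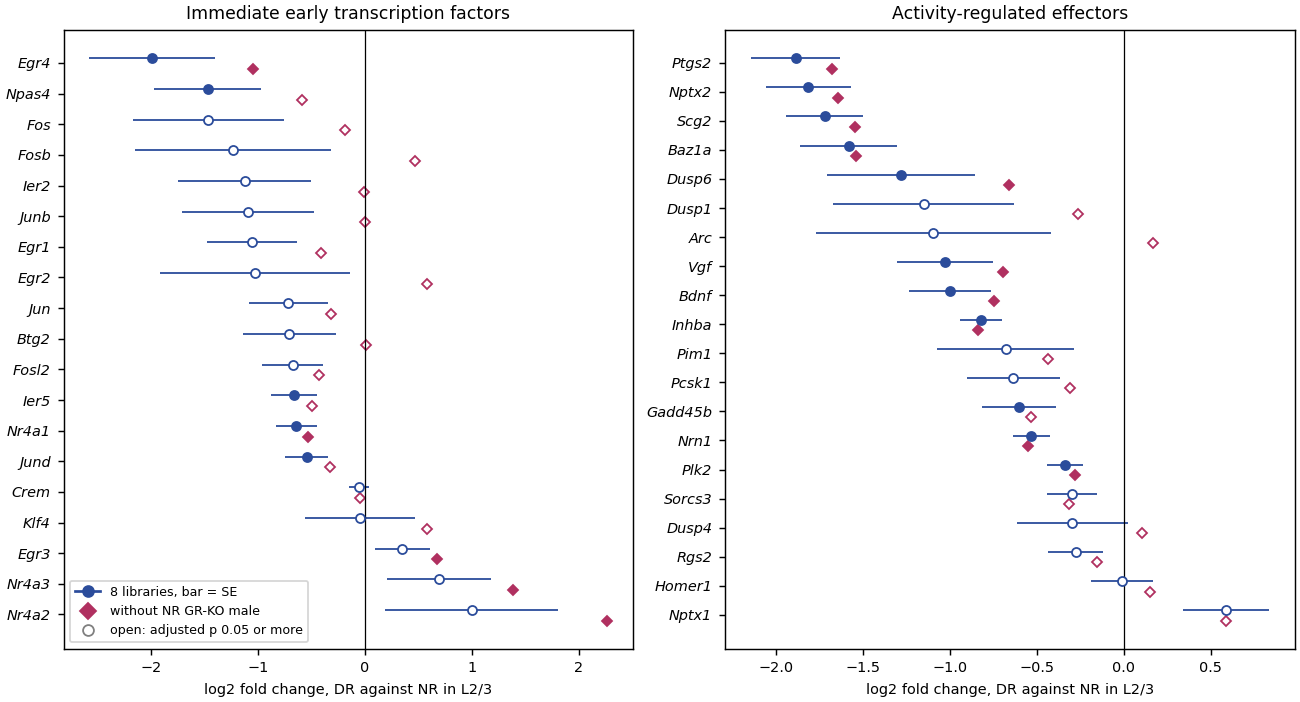
Log2 fold change of DR against NR in L2/3 for 19 immediate early transcription factors (left) and 20 activity-regulated effectors (right), with all 8 libraries (blue circles, bars are SE) and without NR GR-KO male (red diamonds); open symbols have an adjusted p of 0.05 or more. Nptx2 and Scg2 are at -1.82 and -1.72 with all 8 libraries and at -1.65 and -1.55 without that library; the median of the effectors moves from -0.75 to -0.49 and that of the transcription factors from -0.71 to -0.05.

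The promoters of the activity-regulated genes called lower are shown because CREB acts through a short motif, the cyclic AMP response element. Its full form TGACGTCA and its core TGACG were searched on both strands from 250 bases before to 50 bases after each start in the RefSeq table for GRCm38.p6; the full form contains the core. Of the 16 genes called lower in both activity lists, 12 had a promoter in the table. The core was found in 7 of these 12 genes (Bdnf, Egr4, Npas4, Nr4a1, Plk2, Ptgs2 and Scg2), that is 58.3%, against 23.05% of 27025 genes. Counted by promoter it was in 7 of 18 (38.9%), against 20.8% of 32851 promoters of the same length. The full form was found in 2 of them, Plk2 and Scg2, against 2.03% of genes. The AP-1 motif TGANTCA, at which FOS and JUN proteins bind, was found in 1 of them (Bdnf), against 8.97% of genes. List members that were not called were not counted, so these shares cannot be tied to the decrease in the dark. In the stretches below, which lie before the start, capitals mark the core or the full form on either strand.
Egr4 (chr6:85513668-85513724, minus strand): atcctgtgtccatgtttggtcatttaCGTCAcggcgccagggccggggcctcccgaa
Nr4a1 (chr15:101266780-101266836, plus strand): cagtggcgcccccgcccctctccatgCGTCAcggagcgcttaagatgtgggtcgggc
Npas4 (chr19:4990110-4990166, minus strand): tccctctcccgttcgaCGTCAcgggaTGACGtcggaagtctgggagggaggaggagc
Bdnf (chr2:109692375-109692431, plus strand): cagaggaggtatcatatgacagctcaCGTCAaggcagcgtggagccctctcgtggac
Scg2 (chr1:79440061-79440120, minus strand): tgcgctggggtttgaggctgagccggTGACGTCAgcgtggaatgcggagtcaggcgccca
Plk2 (chr13:110394956-110395015, plus strand): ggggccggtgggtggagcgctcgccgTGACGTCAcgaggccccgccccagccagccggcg

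Among the genes with the largest decreases, 9 of 12 had a promoter in the table and 2 held the core, Osbpl3 and Trpc6. This is 22.2%, near the share of all genes. Their stretches are shown in the same way. Of the 12 genes with the largest increases, 7 had a promoter and 2 held the core (28.6%), and none of either list held the full form. The letters are a description and no binding was measured here.
Osbpl3 (chr6:50456280-50456336, minus strand): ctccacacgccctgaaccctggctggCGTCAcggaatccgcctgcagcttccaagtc
Trpc6 (chr9:8544013-8544069, plus strand): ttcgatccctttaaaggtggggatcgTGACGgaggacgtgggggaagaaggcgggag

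Receptors for the main fast transmitters moved unevenly. Of 27 genes for glutamate receptors and their auxiliary subunits, 7 were called higher and 3 lower (6 and 3 by the quasi-likelihood test), with a median of 0.16 and a background of 7.63% and 8.26% of all genes. The AMPA receptor subunit Gria1 was at 549 and 577 CPM in NR GR-Con, 696 and 601 in NR GR-KO, 945 and 1088 in DR GR-Con and 1093 and 804 in DR GR-KO (fold change 0.70, SE 0.14 and adjusted p 2.4e-05), and all 4 DR libraries were above all 4 NR libraries. The other AMPA subunits called were lower, Gria2 at 1349.6 to 1594 CPM in NR and 1066 to 1290.3 in DR (-0.31, adjusted p 0.026) and Gria4 at 695 to 820.0 CPM in NR and 538 to 637 in DR (-0.37, adjusted p 0.0047). Gria2 encodes the subunit that makes AMPA receptors impermeable to calcium. The kainate receptor subunit Grik4 rose (72.1 to 88.4 CPM in NR and 105 to 147 in DR, 0.75, adjusted p 3.7e-06). Grin2d, Grik3, Grm4 and Grid1 had fold changes of 0.69, 0.57, 0.81 and 0.38. Without the Tshz2-high nuclei 5 genes of this list were called higher, and Grik3 (adjusted p 0.077) and Grm4 (0.052) were not. Neto2, an auxiliary subunit of kainate receptors, fell from 151 ± 14.9 to 94.9997 ± 19.1 CPM (-0.67, adjusted p 3.1e-04). Of 14 GABA receptor genes, 3 were called lower and 0 higher. Of these, Gabrg1, at 4.21 to 5.24 CPM in NR and 2.00 to 4.38 in DR, had a fold change of -0.87 and overlapping groups. The remaining 11 GABA receptor genes were not called.

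Of 24 genes for sodium, calcium and HCN channels, 8 were called higher and 1 lower by both edgeR tests (9 and 1 by DESeq2, median 0.14), beside 7.63% higher and 8.26% lower over all genes. Cacna1h, a T-type calcium channel that opens near the resting potential, was at 10.1 and 9.74 CPM in NR GR-Con, 10.9 and 9.77 in NR GR-KO, 16.3 and 20.8 in DR GR-Con and 34.5 and 23.9 in DR GR-KO (fold change 1.20, SE 0.18 and adjusted p 4.3e-09). The L-type channel Cacna1c and the R-type channel Cacna1e rose by smaller steps (0.36 and 0.36, adjusted p 0.012 and 0.0071), together with the auxiliary subunits Cacna2d2 (0.80), Cacna2d3 (0.39) and Cacnb2 (0.45). Scn1a, a sodium channel of the cell body and axon, was the member called lower, at 589 and 503 CPM in NR GR-Con, 425 and 423 in NR GR-KO, 334 and 272 in DR GR-Con and 262 and 334 in DR GR-KO (fold change -0.68, SE 0.14 and adjusted p 4.1e-05). Its DR libraries lay below all NR libraries, while the sodium channel beta subunits Scn3b and Scn4b were called higher (0.43 and 1.28). Without the Tshz2-high nuclei 6 genes of this list were called higher, and Scn4b (0.57, adjusted p 0.42) and Cacna2d3 (0.27, adjusted p 0.075) were not. Of 44 potassium channel genes, 6 were called higher and 4 lower by both edgeR tests (9 and 6 without NR GR-KO male), counts to be read against the same shares of all genes. Kcnip2, which binds A-type channels, rose from 27.2 ± 3.16 to 49.2 ± 10.6 CPM (fold change 0.84, SE 0.11 and adjusted p 1.7e-11). The calcium-activated channel Kcnn3 rose from 23.4 ± 4.65 to 46.2 ± 12.5 CPM (0.99, adjusted p 2.7e-05) and the modifier subunit Kcns3 from 8.24 ± 2.67 to 17.1 ± 2.04 CPM (1.07, adjusted p 1.4e-07). Beside Kcnv1, the genes called lower were the inward rectifier Kcnj3 (-0.40), Kcnk1 (-0.30) and Kcns2 (-0.58).

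Guidance and adhesion genes were called in both directions, with 7.63% of all genes higher and 8.26% lower as the background. Of 45 axon guidance and growth genes, 5 were called higher and 3 lower (4 and 3 by the quasi-likelihood test). Without NR GR-KO male 12 were higher and 3 lower (9 and 2 by the quasi-likelihood test). The Slit ligands went opposite ways: Slit2 fell, as above, and Slit1 rose, at 20.8 and 21.3 CPM in NR GR-Con, 30.0 and 21.9 in NR GR-KO, 37.4 and 40.4 in DR GR-Con and 61.2 and 38.6 in DR GR-KO (fold change 0.91, SE 0.16 and adjusted p 2.0e-06). The semaphorin receptors Plxna1 and Plxnd1 rose (0.65 and 0.57), while the semaphorin receptor Nrp2 fell from 31.9 ± 8.28 to 17.4 ± 0.937 CPM (-0.86, adjusted p 2.5e-06) and the ligand Sema3a from 135 ± 10.5 to 74.9 ± 31.7 CPM (-0.86, adjusted p 0.024). Sema3a was not called by the quasi-likelihood test (adjusted p 0.073), by DESeq2 (0.052) or without NR GR-KO male (0.064). Efnb3 and the netrin receptor Unc5a were also called higher (0.93 and 0.61), Unc5a not without NR GR-KO male (adjusted p 0.12). Of 39 synaptic organizers, 5 were called higher and 4 lower (4 and 4 by the quasi-likelihood test). Slitrk4, a postsynaptic adhesion protein, was at 23.7 to 30.6 CPM in NR and 14.4 to 19.6 in DR (fold change -0.75, SE 0.10 and adjusted p 1.6e-10), and Lrrtm2, which binds neurexins, at 11.2 to 13.9 CPM in NR and 7.60 to 9.79 in DR (-0.53, adjusted p 5.9e-05). Flrt2 and Slitrk1 were lower as well (-0.58 and -0.35), and Nrxn2, Nlgn3, Lrrc4b, Cntnap2 and Ptpru were higher, by 0.26 (Nlgn3) to 0.94 (Ptpru). Of 21 cadherins and protocadherins, Cdh2 was called higher (0.28) and 4 were called lower, with Pcdh20 at 2.53 to 3.51 CPM in NR and 0.612 to 1.72 in DR (-1.62, adjusted p 2.6e-09). Without NR GR-KO male 4 were higher (Cdh2, Cdh9, Cdh13 and Pcdh8, of which 3 by the quasi-likelihood test) and 4 lower.

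Among 19 circadian clock genes, 2 were called higher and 1 lower (3 and 1 by the quasi-likelihood test); 7.63% and 8.26% of all genes were called. Ciart, a repressor within the clock, was at 10.9 and 15.8 CPM in NR GR-Con, 12.2 and 13.7 in NR GR-KO, 5.28 and 4.79 in DR GR-Con and 6.84 and 7.10 in DR GR-KO (fold change -1.15, SE 0.17 and adjusted p 2.0e-09), and its activator counterpart Arntl was at 94.6 and 78.0 CPM in NR GR-Con, 77.8 and 69.7 in NR GR-KO, 107 and 111 in DR GR-Con and 122 and 119.5 in DR GR-KO (fold change 0.52, SE 0.12 and adjusted p 4.0e-04). The libraries did not overlap for either gene. Hlf was called higher as well (0.61). Without NR GR-KO male 3 genes of this list were higher and 3 lower. Per the study's methods all mice were collected in one window at the start of the dark phase, but DR mice had been kept without a light cycle, so that rearing and clock phase cannot be told apart for these genes. Among 15 genes of the glucocorticoid pathway, 2 were called higher and 2 lower (1 and 1 by the quasi-likelihood test, against 14.0% of all genes in either direction). Nr3c2, the mineralocorticoid receptor, which also binds corticosterone, was at 106 and 123 CPM in NR GR-Con, 128 and 131 in NR GR-KO, 179 and 140.1 in DR GR-Con and 218 and 181 in DR GR-KO (fold change 0.55, SE 0.12 and adjusted p 3.3e-04). Tsc22d3, a gene induced by glucocorticoids, was at 1.33 to 1.87 CPM in NR and 0.927 to 1.17 in DR (-0.66, adjusted p 0.0038). Ddit4 and Mt2 were at 1.27 to 2.01 CPM in NR and 2.04 to 2.93 in DR (0.56) and at 0.625 to 0.742 CPM in NR and 0.363 to 0.559 in DR (-0.61). Fkbp5, a co-chaperone of the receptor, was at 50.2 and 24.5 CPM in NR GR-Con, 33.7 and 20.5 in NR GR-KO, 24.1 and 82.6 in DR GR-Con and 83.5 and 63.2 in DR GR-KO and was not called over both genotypes (adjusted p 0.090).

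Markers of other cell types and of RNA quality also differed with rearing. The nuclear RNA Malat1 was at 60578 to 64042 CPM in NR and 32382 to 42296 CPM in DR (fold change -0.71, SE 0.11 and adjusted p 5.7e-09), and it was 1 of 2 genes called lower among 8 that report on RNA quality, with the chaperone Hsp90aa1 (-0.44). Of 8 oligodendrocyte and precursor markers 5 were called lower and 0 higher, for instance Mog at 1.94 to 2.47 CPM in NR and 1.01 to 1.40 in DR (fold change -0.94, SE 0.17 and adjusted p 1.6e-06), while their summed level was 86.0 to 124 CPM in NR and 75.7 to 127 CPM in DR, and Mbp was not called. Of 8 inhibitory markers 5 were called lower, with a summed level of 82.2 to 109 CPM in NR and 45.9 to 82.9 CPM in DR. Gad1 and Gad2 were not among them. Of 8 astrocyte markers 2 were called lower (summed level 430.2 to 907 CPM in NR and 527 to 1093 CPM in DR). Without NR GR-KO male 2 of them, Slc1a3 (1.62) and Gpc5 (1.47), were called higher and 2 lower (2 and 1 by the quasi-likelihood test). Of 7 microglia and vascular markers 1 was lower (17.8 to 21.2 and 14.6 to 18.4 CPM). Over all genes 7.63% were called higher and 8.26% lower. No listed marker of another cell type was at 0 in any library. The part of these differences in the changes of neuronal genes was not tested.

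Genes that define L2/3 and its depth subtypes were called in both directions, and the counts of these small lists stand beside 7.63% higher and 8.26% lower over all genes. Of 6 L2/3 markers, Otof was called higher and Stard8 and Calb1 lower. Cux2 was at 298 to 431 CPM in NR and 296 to 445 in DR (adjusted p 0.96) and Ccbe1 at 96.5 to 149.9 CPM in NR and 129.7 to 261 in DR (adjusted p 0.078). Stard8, a GTPase-activating protein, was at 47.1 to 81.7 CPM in NR and 36.0 to 50.3 in DR (-0.60, adjusted p 0.0079). Calb1, the calcium buffer calbindin, was at 162 and 184 CPM in NR GR-Con, 132 and 193 in NR GR-KO, 174 and 127 in DR GR-Con and 69.2 and 91.2 in DR GR-KO (-0.61, adjusted p 0.039), so that the low values were those of DR GR-KO. Calb1 was not called by the quasi-likelihood test (adjusted p 0.082) or without the Tshz2-high nuclei (0.056), and Ccbe1 was called higher without those nuclei (0.63, adjusted p 0.034). Neither Stard8 nor Calb1 was called without DR GR-Con female, without DR GR-KO male or without NR GR-KO female, and Stard8 was not called without NR GR-Con male. Among 5 genes tied to depth subtypes, namely Cdh13, Trpc6 and Chrm2, which mark them, and the adhesion proteins Mdga1 and Igsf9b, Mdga1 was called higher (17.6 to 28.3 CPM in NR and 34.9 to 71.1 in DR, 1.01) and Trpc6 lower. Cdh13, Chrm2 and Igsf9b were not called over both genotypes (adjusted p 0.057, 0.55 and 0.99), but Cdh13 was called higher without NR GR-KO male (1.92, adjusted p 7.5e-07). None of 5 L4 markers was called. Of 9 markers of layers 5 and 6, Deptor and Tshz2 were called higher (0.90 and 2.99; Tshz2 not by the quasi-likelihood test, adjusted p 0.097) and Sulf1, a heparan sulphate sulphatase, lower, at 17.1 and 16.3 CPM in NR GR-Con, 20.6 and 19.1 in NR GR-KO, 6.79 and 7.12 in DR GR-Con and 7.11 and 9.90 in DR GR-KO (fold change -1.24, SE 0.12 and adjusted p 8.5e-20). Of 9 genes that earlier results of these data had singled out in neurons, Gpc5 among them, Syt17, St6galnac5 and Ptpru were called higher (0.94, 2.55 and 0.94) and Osbpl3 and Strip2 lower (-1.71 and -0.89), which is no independent evidence of their direction (1 higher, Syt17, and 2 lower by the quasi-likelihood test). Without the Tshz2-high nuclei the fold change of Tshz2 was 1.89 (adjusted p 1.7e-04) and that of St6galnac5, in which they were rich, 2.03 (adjusted p 0.0036).

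Within GR-Con, 1357 of 18225 genes (7.45%) were called between DR and NR (417 by the quasi-likelihood test, 479 to 2286 when 1 library was left out). Within GR-KO, 1561 of 18261 genes (8.55%) were called. The quasi-likelihood test called 0 there (4926 genes at an unadjusted p under 0.05), but 733 without the Tshz2-high nuclei and 1506 in nuclei of 10000 to 30000 UMIs. DESeq2 called 2100, of which 1335 were higher and 765 lower, against 777 higher and 784 lower by the likelihood ratio test. These tests used separate libraries, and 424 genes were called in both (31.2% of the GR-Con and 27.2% of the GR-KO calls), 420 of them in the same direction. Cdh13, an adhesion protein that marks a depth subtype of L2/3, was at 98.9 and 108 CPM in NR GR-Con, 353 and 107 in NR GR-KO, 569 and 371 in DR GR-Con and 456 and 175 in DR GR-KO. It was called in GR-Con (fold change 2.18, adjusted p 9.5e-16), also without the Tshz2-high nuclei (2.22), and not in GR-KO (0.46, adjusted p 0.76), where NR GR-KO male lay within the range of the DR libraries. The difference between the genotypes was not called (interaction -1.73, adjusted p 0.66). Robo1, the receptor of Slit proteins, was at 347 and 328 CPM in NR GR-Con, 909 and 486 in NR GR-KO, 1038 and 505 in DR GR-Con and 745 and 479.9 in DR GR-KO. Its fold change was 1.20 in GR-Con (adjusted p 0.011) and -0.18 in GR-KO (adjusted p 0.85), with an interaction of -1.38 (adjusted p 0.52). Unlike for Cdh13, both NR GR-KO libraries lay above both NR GR-Con libraries, but Robo1 was not called between the genotypes in NR.

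The changes could also be read as shares of nuclei in which a UMI of the gene was found, after each nucleus was reduced to 5000 UMIs (0 to 32 shallower nuclei per library were left out). Osbpl3 was found in 54.1% to 71.8% of L2/3 nuclei in NR and 23.2% to 37.4% in DR. In oligodendrocytes, which serve as background, it was found in 12.6% to 17.6% in NR and 2.63% to 8.20% in DR. This background thus also fell in the dark, without overlap. The unreduced shares in L2/3 were 83.4% to 92.6% in NR and 50.3% to 66.2% in DR. Otof was found in 12.8% to 17.8% in NR, 27.3% to 35.8% in DR and 0.206% to 0.690% of oligodendrocytes (36.8% to 53.9% and 59.1% to 68.6% unreduced). The NR and DR libraries did not overlap for either gene, and both lay above the background. Npas4 was found in 3.001% to 16.7% in NR, with the highest value in NR GR-KO male, and 2.60% to 3.32% in DR, against 0.104% to 1.41% of oligodendrocytes (14.3% to 41.6% and 7.75% to 11.7% unreduced). Median depths were 18144 to 37731 UMIs in L2/3 and 7040 to 15571 UMIs in oligodendrocytes. These shares are descriptions without a test.

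Other excitatory neurons of the same libraries responded to darkness as well, and the difference from L2/3 was tested directly with the library as a block. By the likelihood ratio test 1740 genes were called in L4 (9.6% of 18131), 652 in L5IT (4.53% of 14384) and 1041 in L6IT (6.52% of 15957), where IT stands for intratelencephalic neurons. L4 held 19022 nuclei, L5IT 3483 and L6IT 6776, against 21913 in L2/3. The counts within these 3 types were not repeated with equal numbers of nuclei and do not rank the responses. The response of L2/3 differed from that of L4 in 1657 genes (8.96% of 18485), from that of L5IT in 636 (3.63% of 17507) and from that of L6IT in 522 (2.96% of 17628). The quasi-likelihood test called 961, 157 and 87. With equal numbers of nuclei per type and library the counts were 567, 444 and 212, and without NR GR-KO male 2114, 1532 and 784.

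Of the 12 genes with the largest increases in L2/3, 8 were also called higher in L4, 5 in L5IT and 8 in L6IT. Of the 12 with the largest decreases, 5 were called lower in L4, 5 in L5IT and 8 in L6IT. Both sets were chosen by their change in L2/3, and the other types held fewer nuclei. Hunk was called lower in all 4 types, with -1.24, -1.26, -1.23 and -1.34 in L2/3, L4, L5IT and L6IT, and the differences from the other 3 were -0.03, -0.13 and -0.01 (SE 0.16, 0.25 and 0.20). Osbpl3 changed by -1.71, -0.98, -1.74 and -1.34, more in L2/3 than in L4 (difference -0.71, SE 0.13, adjusted p 4.6e-06) but not detectably so against L5IT (0.04, SE 0.11). Trpc6 fell in L2/3 and L6IT, and its change differed from those in L4 (-1.58, adjusted p 7.3e-06) and L5IT (-1.57, adjusted p 3.6e-06). The decrease of Bdnf differed from L4 (-0.93, adjusted p 7.6e-05) and L5IT (-1.02, adjusted p 1.6e-07), where its fold changes were -0.10 and 0.01. Nptx2 differed from all 3 types, by -2.14, -1.38 and -1.001. Scg2 was lower in all 4 types, and more so in L2/3 than in each of the others, by -0.79, -0.76 and -0.94 (adjusted p 6.4e-04, 0.015 and 2.7e-05).

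The 8 genes whose response differed most evenly from L4, L5IT and L6IT were Aifm3, Nhsl2, Sash1 and Maml2, which rose more in L2/3, and Fstl5, Etl4, Dtna and Ifrd1, which fell more or rose less. Maml2 had a fold change of 1.68 in L2/3 and of 0.29, 0.41 and 0.03 in the others, none of which was called there. Etl4 changed by -0.86 in L2/3 and was not called in L4, L5IT or L6IT (-0.25, -0.19 and -0.37). Aifm3, a mitochondrial flavoprotein of the apoptosis-inducing factor family, changed by 0.51 in L2/3 against -0.13, -0.43 and 0.01. Fstl5, a secreted follistatin-like protein, was not called in L2/3 (-0.34, adjusted p 0.21) but rose in L4 and L5IT (0.88 and 0.65, adjusted p 1.5e-08 and 0.038). Dtna, which encodes dystrobrevin alpha, and Ifrd1 changed in L2/3 by -0.51 and -0.72.

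**Figure D4:**
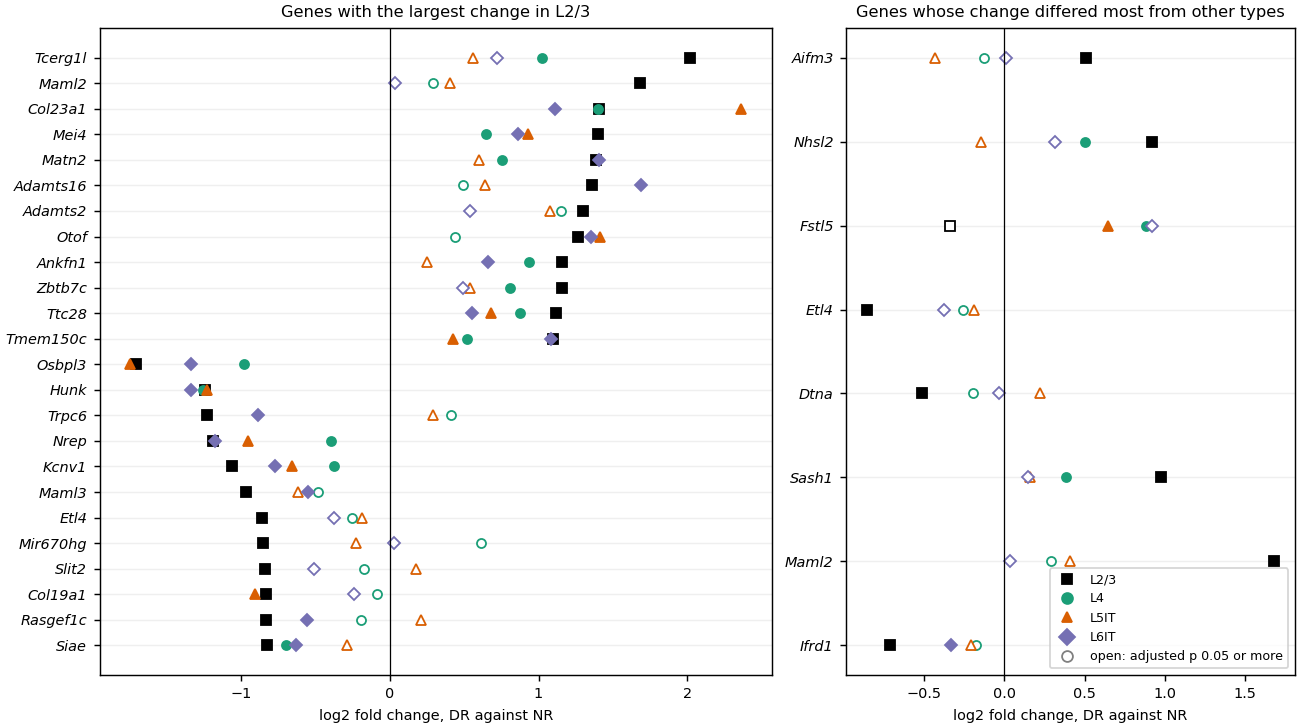
Log2 fold change of DR against NR in L2/3 (black squares), L4 (green circles), L5IT (orange triangles) and L6IT (purple diamonds), for the 24 genes with the largest change in L2/3 (left) and the 8 genes whose response differed from the other types (right); open symbols have an adjusted p of 0.05 or more in that type. Hunk lies near -1.2 to -1.3 in all 4 types, whereas Maml2 is at 1.68 in L2/3 and between 0.03 and 0.41 elsewhere.

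The remaining comparisons set L2/3 neurons of mice with the Cre vector against those of mice with the ΔCre vector. Cre RNA was also counted with these neurons, as given above, and its origin was not tested. These comparisons can therefore not be taken as those of Cre in astrocytes alone. The number of genes called depended on the test and its settings. In NR, 49 of 18277 genes (0.268%) were called between GR-KO and GR-Con, 41 higher and 8 lower. In DR, 103 of 17978 (0.573%) were called, 62 higher and 41 lower. Over both rearing conditions 17 of 18793 (0.0905%) were called, 12 of them higher in GR-KO. By the quasi-likelihood test the count was 0 in each (1001, 1681 and 1195 at an unadjusted p under 0.05) and DESeq2 54, 195 and 25, with 147 higher and 48 lower in DR. With sex as a term the counts were 323 in NR, 177 in DR and 29 over both, and in nuclei of 10000 to 30000 UMIs 297, 121 and 40. Leaving out 1 library gave 3 to 999 genes in NR, the highest without NR GR-KO female, when the male library stands alone for GR-KO, and 33 to 332 in DR. In GR-KO the features of the vector themselves were among the genes called, with Cre at 3.42 and 0.721 CPM in NR and 0.898 and 1.66 in DR.

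In NR, the genes with the largest increases in GR-KO were Il1rapl2, Gpc5, Adarb2, Zfpm2 and Erbb4, several of which are better known from interneurons or astrocytes. Il1rapl2 was at 8.65 and 8.51 CPM in NR GR-Con, 97.7 and 30.6 in NR GR-KO, 218 and 39.0 in DR GR-Con and 144 and 75.5 in DR GR-KO (fold change 2.90, SE 0.54 and adjusted p 1.9e-04), with the male library well above the female one in 3 of the 4 groups. Without the Tshz2-high nuclei its fold change was 2.71 (adjusted p 1.0e-05). Adarb2, a marker of interneurons, was at 6.20 and 5.18 CPM in NR GR-Con, 11.9 and 15.4 in NR GR-KO, 13.3 and 15.1 in DR GR-Con and 7.91 and 7.53 in DR GR-KO (fold change 1.27, SE 0.21 and adjusted p 1.4e-05). Erbb4, the neuregulin receptor of interneurons, was at 10.3 and 13.0 CPM in NR GR-Con, 22.5 and 25.3 in NR GR-KO, 15.3 and 20.9 in DR GR-Con and 9.94 and 15.6 in DR GR-KO (fold change 1.04, SE 0.18 and adjusted p 3.7e-05). Its UMIs were found in 3.42% to 11.8% of L2/3 nuclei and in at least 99.8% of oligodendrocytes at 5000 UMIs. Inhibitory markers summed to 97.8 and 109 CPM in NR GR-KO and to 98.6 and 82.2 CPM in NR GR-Con, and 8 of 8 had a positive fold change (median 0.56). Astrocyte markers summed to 907 and 592 CPM against 441 and 430.2 CPM, without overlap, and 7 of 8 were positive (median 0.93). Oligodendrocyte and precursor markers were positive in 8 of 8 (median 0.31) and microglia and vascular markers in 7 of 7 (median 0.22), and the part of RNA from other cells in these calls was not tested. Over all genes 50.6% had a positive fold change, and markers of a list share the same 4 libraries. Adarb2 was the only inhibitory marker called and Gpc5 the only astrocyte marker. Of the oligodendrocyte and precursor markers 0 were called, and 0 of the microglia and vascular markers. Zfpm2, a cofactor of GATA factors, was at 13.0 and 14.9 CPM in NR GR-Con, 26.3 and 34.0 in NR GR-KO, 27.7 and 19.5 in DR GR-Con and 38.1 and 33.1 in DR GR-KO (1.11, adjusted p 2.2e-05), and Gpc5, a glypican abundant in astrocytes, at 174 and 128 CPM in NR GR-Con, 589.8 and 282 in NR GR-KO, 843 and 318 in DR GR-Con and 547 and 444 in DR GR-KO (1.53, adjusted p 0.027). Gpc5 is itself 1 of the 8 astrocyte markers, and without the Tshz2-high nuclei its fold change was 1.52 (adjusted p 0.020). Lower in GR-KO were Osbpl3 (-0.63, adjusted p 0.017), the parathyroid hormone receptor gene Pth2r (-0.78), Pld5 (-0.75), Flt3 (-0.60) and Coch (-0.58).

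In DR, higher in GR-KO were the corepressor Cbfa2t3 (1.39, SE 0.31), Ier5l (1.35, SE 0.21), the repulsive guidance molecule Rgma (1.29, SE 0.26), Sox8 (1.18, SE 0.20) and Jade2 (1.08, SE 0.20). Rgma was at 11.2 and 9.07 CPM in NR GR-Con, 10.2 and 8.43 in NR GR-KO, 7.45 and 11.7 in DR GR-Con and 22.6 and 24.3 in DR GR-KO (adjusted p 7.2e-04). Ier5l, a relative of the immediate early gene Ier5, was at 6.03 and 6.89 CPM in NR GR-Con, 7.85 and 6.99 in NR GR-KO, 5.94 and 7.53 in DR GR-Con and 15.8 and 18.7 in DR GR-KO (adjusted p 6.1e-07). For both genes the DR GR-KO libraries stood above the other 6. Lower in GR-KO were Dipk2a (-1.41), Syt10 (-1.38), Calb1 (-0.91), Col25a1 (-0.88) and Adarb2 (-0.88). Syt10, a calcium sensor of secretory vesicles, was at 33.1 and 37.1 CPM in NR GR-Con, 31.6 and 29.5 in NR GR-KO, 42.8 and 31.8 in DR GR-Con and 12.6 and 16.01 in DR GR-KO (adjusted p 6.0e-06). The clock genes Nr1d1 and Dbp were also called higher in DR GR-KO (0.86 and 0.86, adjusted p 0.0014 and 0.0016). They were 2 of 19 clock genes, against 0.573% of all genes, and the quasi-likelihood test called 0. The DR mice had been kept without a light cycle, and the part of clock phase in these calls was not tested. Oligodendrocyte and precursor markers summed to 122 and 127 CPM in DR GR-KO and to 75.7 and 90.4 CPM in DR GR-Con, without overlap. Of these 8 markers 5 had a positive fold change and 3 a negative one, and Mbp was called higher. Inhibitory and astrocyte markers were each negative in 6 of 8, where 47.7% of all genes were positive. Adarb2 was the only inhibitory marker called, and 0 astrocyte markers were called. The part of RNA from other cells in the calls in DR was not tested. Over both rearing conditions the rule named Fmnl1, a formin that acts on actin filaments, at 16.7 and 15.4 CPM in NR GR-Con, 22.3 and 18.4 in NR GR-KO, 18.1 and 17.5 in DR GR-Con and 29.8 and 27.8 in DR GR-KO (fold change 0.52, SE 0.12 and adjusted p 0.018).

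The interaction asked whether the genotype difference itself differed between DR and NR, and 35 of 18793 genes (0.186%) were called, with a positive value in 11 and a negative one in 24. By the quasi-likelihood test 0 were called (1651 at an unadjusted p under 0.05) and DESeq2 86 (48 higher and 38 lower), and the count was 14 to 334 when 1 library was left out. Osbpl3 was lower in GR-KO in NR and higher in GR-KO in DR (fold change 0.75, adjusted p 0.0056), which gave an interaction of 1.38 (SE 0.21, adjusted p 9.4e-07), so that its change in the dark was -2.40 in GR-Con and -1.01 in GR-KO. By the quasi-likelihood test its adjusted p was 0.19 and by DESeq2 9.4e-12. Rgma (interaction 1.41), the histamine receptor Hrh1 (1.35), Ier5l (1.15) and Ppp1r16b (0.91) had the other largest positive values among called genes of mean log2 CPM of at least 3. Hrh1 was at 39.1 and 52.7 CPM in NR GR-Con, 26.5 and 40.1 in NR GR-KO, 30.8 and 36.8 in DR GR-Con and 64.2 and 61.1 in DR GR-KO (adjusted p 0.039). Adarb2 (-2.14), Ptprz1 (-1.55), Erbb4 (-1.54), Prss12 (-1.52) and Prex2 (-1.23) had the largest negative values among them. For Adarb2 the high pairs were NR GR-KO and DR GR-Con. Summed inhibitory markers were 72.0 to 82.9 CPM in DR GR-Con and 45.9 to 71.7 CPM in DR GR-KO, and their part in this pattern was not tested.

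**Figure D5:**
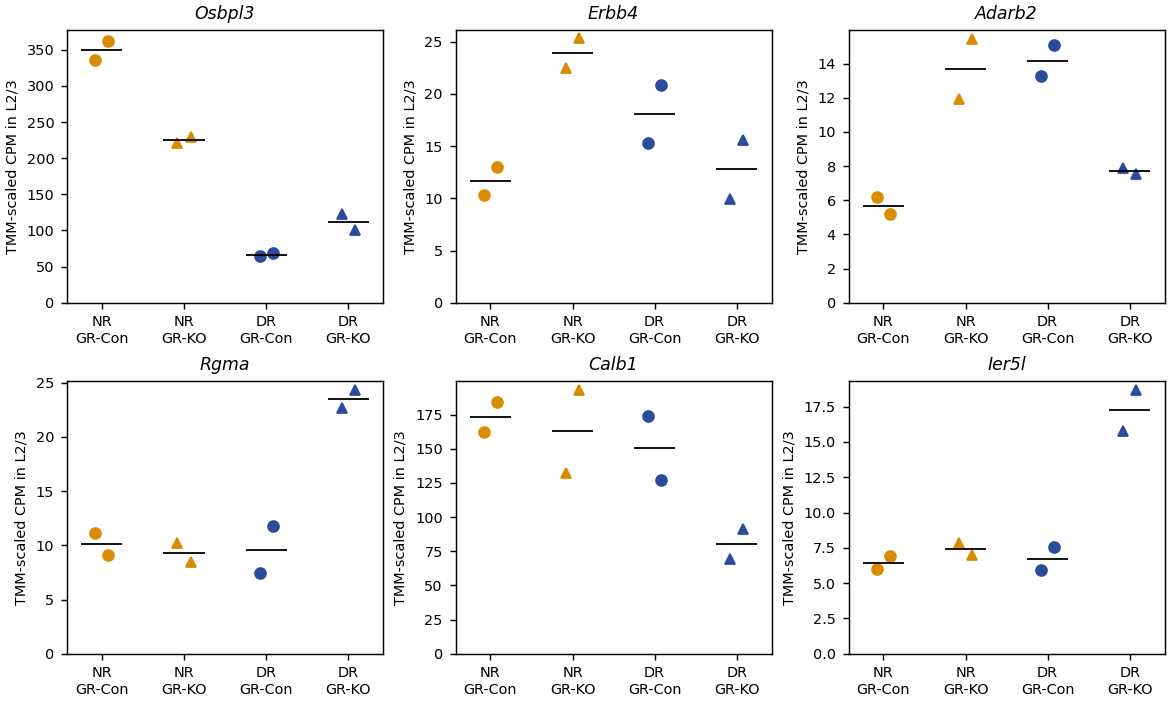
TMM-scaled CPM in L2/3 of Osbpl3, Erbb4, Adarb2, Rgma, Calb1 and Ier5l in the 4 groups, 1 symbol per library (male left, female right) with a line at the mean of 2, NR in orange and DR in blue. Osbpl3 is lower in GR-KO than in GR-Con in NR and higher in DR, and Rgma and Ier5l are highest in both DR GR-KO libraries.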

How the data were processed

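Nuclei of V1 were sorted as DRAQ5+ and, per the study's methods, GFP-negative, and sequenced as 8 snRNA-seq libraries of 1 mouse each. Per the study's methods the authors aligned reads with Cell Ranger (8.0.1) to mm10 with the eGFP sequence added (the matrix also holds features for Cre and ΔCre), removed doublets with DoubletFinder and clustered with Seurat (5.3.0). They deposited a matrix of raw UMI counts per nucleus and a table with the library, group and cell type of each nucleus, in which the percent of mitochondrial UMIs was also deposited by the authors. A nucleus was assigned to a library and group by that table, and sex was read from the library names. These names carry no replicate number, so the numbers 1 and 2 that the labels give within a group could not be matched to the male and the female library. No doublet caller was run again, and nuclei were not filtered further. L2/3 counts were summed per library and tested in edgeR (4.0.16, R 4.3.3) with filterByExpr, TMM scaling, tagwise dispersions and the two-sided likelihood ratio test that the study states, with Benjamini-Hochberg adjustment over all genes tested. The quasi-likelihood F-test and DESeq2 (1.42.0) were run as alternatives. The likelihood ratio test can be liberal with 2 libraries per group. Scripts were tested on simulated data.

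The cell type, its members and the gene lists were chosen with earlier results of these data known. Genes named outside the lists were, for rearing, the 12 per direction with the largest fold change that both edgeR tests called, with mean log2 CPM of at least 5 and no overlap between libraries. For each genotype comparison and the interaction they were up to 5 called genes per direction, ranked by fold change, with a mean log2 CPM of at least 3 and whose libraries did not overlap, a condition not set for the interaction. For neighbouring types, the 8 genes of mean log2 CPM of at least 5 called in the most of the 3 fits in one direction were taken, ties by the smallest of the largest adjusted p. Unnamed gene models and sex-linked features were counted but not named under these rules. Of a list, up to 8 called members were named, and those beyond 8 were added after their values were seen. Leaving out Tshz2-high nuclei and keeping nuclei of 10000 to 30000 UMIs were chosen after seeing the data. Shares used the expected share after drawing 5000 UMIs per nucleus without replacement. Intervals and limits cover counting error only. Gene positions are from GENCODE vM21 and promoters from RefSeq, both on GRCm38. Values of some called list members are not reported here.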

Additional observations from a re-analysis of the deposited data

Results flagged for a closer look

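Of 130 groups of 4 libraries (the 4 NR or the 4 DR libraries, for 43 genes and for summed lists), 14 held 1 library far from the others by Dixon's ratio of the gap to the range, which had to pass the 95% critical value. Chance gives about 1 in 20 for a single group. The groups reuse the same libraries, and some of the genes are also in the summed lists, so the count of 14 is not a test. Of the 14, 10 concerned NR GR-KO male. In that library Egr4 (24.5 CPM against 3.71 to 4.91, ratio 0.942), Ier5 (13.4 against 7.02 to 7.74, ratio 0.887), Dusp6 (18.0 against 5.04 to 6.51, ratio 0.887) and Vgf (9.37 against 3.73 to 4.52, ratio 0.859) were highest of the NR libraries. Mei4 (48.4 against 17.3 to 21.002, ratio 0.882) and Tmem150c (32.5 against 19.9 to 21.4, ratio 0.884), both higher in the dark, were highest there as well. So were the summed CPM of depth subtype genes (505 against 260.5 to 282, ratio 0.914), of markers of layers 5 and 6 (237 against 77.3 to 81.1, ratio 0.976) and of the genes singled out earlier in neurons (1035 against 626 to 674, ratio 0.881). The last of these lists includes Gpc5, which is also an astrocyte marker. The summed CPM of L2/3 markers was lowest there (975 against 1280.4 to 1332, ratio 0.855). Adamts2 was lowest in NR GR-Con male (21.1 against 38.0 to 40.5 CPM, ratio 0.874). In DR, Bdnf was highest in DR GR-Con male (16.6 against 9.74 to 10.8 CPM, ratio 0.840), and the summed glutamate receptors (16906 against 18446 to 18665 CPM, ratio 0.875) and GABA receptors (4400.2 against 5021 to 5056 CPM, ratio 0.947) were lowest in DR GR-Con female.

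The genotype difference differed between DR and NR, by the likelihood ratio test of the interaction, in 10 named genes. The values, as the difference in DR minus that in NR on the log2 scale, were 1.41 for Rgma, 1.38 for Osbpl3, 1.35 for Hrh1, 1.15 for Ier5l and 0.91 for Ppp1r16b, and -2.14 for Adarb2, -1.55 for Ptprz1, -1.54 for Erbb4, -1.52 for Prss12 and -1.23 for Prex2. The quasi-likelihood test called none of them.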

How the results depend on the processing

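With 2 libraries per group the counts of genes depended on the test and on single libraries, and the cause was not tested. The quasi-likelihood test gave 0 genes for the genotype comparisons in NR and in DR, over both, for the interaction and for rearing within GR-KO, 417 for rearing within GR-Con, and 961, 157 and 87 for the differences from L4, L5IT and L6IT. With sex as a term the counts were 323 for genotype in NR, 177 in DR, 29 over both, 243 for the interaction and 3174 for rearing within GR-KO. Nuclei of 10000 to 30000 UMIs gave 297, 40, 201 and 2379 for genotype in NR, over both, the interaction and rearing within GR-KO. DESeq2 gave 195 for genotype in DR and 86 for the interaction, and 1 fit over all 8 libraries gave 21 for genotype in NR. Equal numbers of nuclei gave 567 and 212 for the differences from L4 and L6IT.

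Leaving out 1 library gave 1475 (without DR GR-KO male) to 3411 (without DR GR-Con male) genes for rearing, 479 (NR GR-Con male) to 2286 (DR GR-Con male) within GR-Con and 226 (DR GR-KO male) to 1612 (NR GR-KO male) within GR-KO. It gave 3 (NR GR-Con male) to 999 (NR GR-KO female) for genotype in NR, 33 (DR GR-KO female) to 332 (DR GR-Con female) in DR, 3 (NR GR-Con male) to 92 (NR GR-KO female) over both and 14 to 334, without the same libraries, for the interaction. For the differences it gave 951 to 2114 (L4), 287 to 1532 (L5IT) and 280 to 784 (L6IT), each highest without NR GR-KO male. Where a group was left with 1 library, that library was assumed to vary like the others. The share of L2/3 nuclei ranged from -0.017 (without DR GR-Con female) to 0.10 for rearing and from -0.022 (without DR GR-Con male) to 0.10 for genotype, and was below 0 for both without NR GR-Con female (-0.002 and -0.018). Drawing 2500 UMIs changed the difference in the share with Otof from 16.6 to 10.3 percentage points, and unreduced nuclei that with Npas4 from -4.82 to -13.4. Of 384 alternatives for the 24 genes named for rearing, 384 kept the direction and the call, which the rule that named them (both tests, no overlap, largest change) favours. Of the alternatives for genes named elsewhere none reversed, and 41 of 130 in NR, 25 of 130 in DR, 8 of 16 over both and 43 of 160 for the interaction lost the call. No paired analysis was possible because the replicate numbers of the labels are not in the library names of the cell table, which give sex in their place, and could not be matched to them; the fit with sex as a term, given above, uses that each group held 1 male and 1 female.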

Other observations

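The Tshz2-high nuclei within L2/3 had other genes that set them apart, given as values and chosen after they were seen. CPM in this paragraph are without TMM, scaled to the UMIs of each set of nuclei summed over libraries. Rmst was at 402 CPM in them against 3.58 CPM in the other L2/3 nuclei, Galnt14 at 269 against 2.43, Cdc14a at 237 against 5.82 and Sgcd at 2323 against 114. Cux2 was at 263 against 375 CPM, and the median nucleus held 26998 against 21732 UMIs. The nuclei labelled L5NP had 3615 CPM of Tshz2, 184 CPM of Htr2c, 1221 CPM of Vwc2l and 72.8 CPM of Fezf2, against 1755, 51.1, 658 and 0.632 CPM in the Tshz2-high nuclei. In L5NP, Rmst was at 117 CPM, Galnt14 at 172, Cdc14a at 6.08, Sgcd at 929 and Cux2 at 20.2. St6galnac5, at 712 CPM in the Tshz2-high nuclei, was at 24.0 CPM in L5NP. The Tshz2-high nuclei are part of the cells that were clustered, so these values carry no test.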
